A study of Homo sapiens with 29 samples.

Results

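The regions described are 2755 stretches of the genome called as enriched in anti-Kcr chromatin immunoprecipitation (ChIP-seq) that lie at the starts of highly expressed genes in HCT116 cells, a human colorectal carcinoma cell line. Kcr stands for lysine crotonylation. They were taken from 49916 regions in all by their length, which had to be under 10000 bp, and by overlap with the 2 kb on either side of the start of a gene whose mean RNA level with non-targeting siRNA and no crotonate was at least 6 log2 RPM, that is 64.0 RPM, where RPM scales a gene's reads to a common library size. The members were thus chosen by the RNA values of those 4 libraries and by the authors' region calls, so neither the height of these genes' RNA nor the presence of enrichment is a result here. RPM values are not divided by gene length, so long genes pass the threshold more easily than short ones.

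The study set siRNA against DAXX (35 nM) beside a non-targeting siRNA (25 nM), each with or without 10 mM crotonate, the anion of crotonic acid. RNA was sequenced in 4 libraries for each of the 4 groups. Anti-Kcr libraries came from formaldehyde-fixed cells: numbers 1A, 1B, 2 and 3 for each siRNA without crotonate, and numbers 2 and 3 for each siRNA with crotonate. The sample notes give 48 h of treatment and the series text gives 18 h, so the exposure is not settled. A single input library, from DAXX siRNA cells, serves as the background of every anti-Kcr library. All groups share the cell line and received an siRNA, and no untransfected cells were used here. Within each siRNA, libraries 1A and 1B differed by little more than sampling noise (chi-square over degrees of freedom 1.007 with non-targeting and 1.012 with DAXX siRNA, against 1.035 to 1.383 for other pairs of libraries of 1 group), and they were averaged and counted as 1 sample. The labels do not say that samples came from separate cultures, so p-values measure the spread between these samples only.

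Crotonylation is an acyl mark placed on lysines of histones and other proteins from crotonyl-CoA, mainly by acetyltransferases such as p300, and removed by histone deacetylases and sirtuins. On chromatin it is known to sit at active promoters and enhancers, and crotonate added to the medium is used to raise the cell's supply of crotonyl-CoA. DAXX is a chaperone that, with ATRX, deposits the histone variant H3.3. No residue is named for the anti-Kcr antibody in the labels, so the signal cannot be assigned to a histone or to a residue.

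Starts of highly expressed genes are mostly CpG-rich, and the members were of that kind. RefSeq promoters (250 bases before to 50 after a start, GRCh38.p14) could be matched for 1793 promoters of the 2755 members. Their median GC content was 66.3%, the same as at starts of lower expressed genes, and above the 58.7% of all 34943 promoters. The ratio of observed to expected CpG exceeded 0.6 in 94.6% of member promoters, in 85.7% of those at regions of lower expressed starts, in 34.6% of those at silent starts and in 48.7% of all promoters. The GC box GGGCGG was present in 75% of member promoters against 44.9% of all promoters, the ETS letters CCGGAAG in 23.5% against 10.2%, and the YY1 letters AAGATGGCG in 6.58% against 1.75%. The TATA letters TATAAA were present in 4.68% against 11.6%, and the CCAAT box in 37.7% against 34.6%. The NRF1 letters GCGCATGC were present in 5.91% against 3.02%, the CREB letters TGACGTCA in 3.57% against 1.84%, the E-box CACGTG in 12.2% against 7.23%, the ZNF143 core ACTACAA in 4.35% against 2.76% and the AP-1 letters TGACTCA in 2.51% against 4.96%. Promoters at lower expressed starts were close to the members in most of these, with 74.9% for the GC box, 18.5% for ETS, 5.35% for NRF1, 4.01% for CREB, 3.42% for YY1 and 10.9% for the E-box. Both strands were searched, matches may overlap one another, and a match is a run of letters and not a shown binding site.

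Promoters of 6 genes show the range of the members, printed 5′ to 3′ on the gene's strand over the 250 bases before the RefSeq start, with matches to the 10 motifs searched, or to their reverse complements, in capitals. PGAM5 (chr12:132710592-132710841, plus strand) and EI24 (chr11:125569227-125569476, plus strand) are among the 3 members with the smallest p for lower Kcr with crotonate. CD46 (chr1:207751804-207752053, plus strand) is among the 3 with the smallest p for higher Kcr. DDX3X (chrX:41333058-41333307, plus strand) and CD164 (chr6:109382468-109382717, minus strand) are among the 5 members of highest Kcr, and SARNP (chr12:55817725-55817974, minus strand) is among the 5 of lowest.
PGAM5: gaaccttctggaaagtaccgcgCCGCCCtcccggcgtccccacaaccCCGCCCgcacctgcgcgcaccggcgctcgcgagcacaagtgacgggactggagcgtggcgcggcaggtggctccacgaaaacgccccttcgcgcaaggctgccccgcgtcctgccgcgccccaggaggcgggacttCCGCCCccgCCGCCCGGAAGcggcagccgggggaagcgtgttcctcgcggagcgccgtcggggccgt
EI24: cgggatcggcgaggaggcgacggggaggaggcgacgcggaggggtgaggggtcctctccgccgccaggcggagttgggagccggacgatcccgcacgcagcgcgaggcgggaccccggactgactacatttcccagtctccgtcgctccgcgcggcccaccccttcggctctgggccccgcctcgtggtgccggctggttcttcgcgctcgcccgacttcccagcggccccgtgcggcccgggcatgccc
CD46: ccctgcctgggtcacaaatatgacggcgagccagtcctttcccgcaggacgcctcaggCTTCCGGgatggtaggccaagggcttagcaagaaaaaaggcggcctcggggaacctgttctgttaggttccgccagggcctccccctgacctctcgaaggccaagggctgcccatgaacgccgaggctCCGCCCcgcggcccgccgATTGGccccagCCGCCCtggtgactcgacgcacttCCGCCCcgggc
DDX3X: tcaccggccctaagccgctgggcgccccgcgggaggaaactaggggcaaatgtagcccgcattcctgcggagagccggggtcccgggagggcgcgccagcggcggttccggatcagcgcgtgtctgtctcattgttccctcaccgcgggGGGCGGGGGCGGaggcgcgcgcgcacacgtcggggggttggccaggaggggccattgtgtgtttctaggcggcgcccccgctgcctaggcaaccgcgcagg
CD164: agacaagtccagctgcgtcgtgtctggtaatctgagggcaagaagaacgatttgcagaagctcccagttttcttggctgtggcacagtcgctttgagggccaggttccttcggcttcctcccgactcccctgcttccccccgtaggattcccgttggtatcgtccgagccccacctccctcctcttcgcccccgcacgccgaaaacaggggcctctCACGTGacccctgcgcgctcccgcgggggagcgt
SARNP: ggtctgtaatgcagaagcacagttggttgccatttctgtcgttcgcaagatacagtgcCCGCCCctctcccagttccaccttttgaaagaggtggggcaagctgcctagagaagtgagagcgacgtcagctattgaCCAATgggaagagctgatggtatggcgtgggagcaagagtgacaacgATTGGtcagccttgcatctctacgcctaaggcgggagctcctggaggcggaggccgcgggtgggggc
In PGAM5 the last GC box on the minus strand (CCGCCC) overlaps the ETS letters, so both are read from 1 capital run, and in DDX3X a pair of GC boxes adjoin. EI24 holds none of the 10 motifs in this window. CD164 holds only the E-box CACGTG, and CD46 and SARNP hold GC boxes and CCAAT boxes on one strand or the other. The same letters occur at members of high and of low Kcr, and across the members the median log2 change with crotonate and non-targeting siRNA ranged from -0.38 to -0.32 among those holding each of the 10 motifs.

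Anti-Kcr libraries held 2226835 to 3639130 reads in regions and the input 1719036, and the deposited values are these reads multiplied by 1 factor per library (1 to 1.49) and put on a log2 scale. No spike-in is named in the sources used here, so a change of the same size everywhere cannot be told apart from a change of scale. A member region held a median of 44 to 86 reads per anti-Kcr library. RNA of colorectal epithelium was present (EPCAM 220 to 313 RPM, KRT8 2190 to 2870 RPM over the 16 libraries), with 7 of 10 epithelial markers above 1 RPM and CDH17, CDX1 and LGALS4 at most 0.203 RPM. Blood markers reached at most 0.421 RPM, endothelial markers at most 1.12 RPM, and of 6 fibroblast markers only COL1A1 exceeded 1 RPM (11.1 to 26.9). DAXX RNA, the target, was 101 to 105 RPM in the 4 libraries with non-targeting siRNA and 22.9 to 27.4 RPM in the 4 with DAXX siRNA.

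Most highly expressed genes carried a Kcr region at their start. Of 3708 genes at or above the threshold, 3090 (83.3%) had a region within 2 kb, against 65.9% of 13292 lower expressed genes and 23.1% of 21148 genes under 0.25 RPM, called silent below. For 2545 genes that region was a member, 545 had only regions of 10000 bp or more, and 618 had none, 13 of which are mitochondrial. The members had a median length of 3150 bp (quartiles 2100 and 4800), against 1800 bp over all regions. The start of the labelling gene, the highly expressed gene of highest RNA in the window, lay inside 2223 members (80.7%). In those the region reached a median of 1392 bp upstream and 1832 bp downstream, and 65.0% of them were longer downstream. Another gene start on the opposite strand within 1 kb, as in divergent promoters, was found at 563 members (20.4%), against 12.9% of regions at lower expressed starts and 1.86% at silent starts. Members are not independent of one another: 696 share a gene start with another member and 159 hold starts of 2 or 3 highly expressed genes.

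Median Kcr at the members stood above input in every library and was lower on average with crotonate. The level is given as log2 of anti-Kcr over input on the deposited scale, as the median over the 2755 members in each library. With non-targeting siRNA it was 1.29 and 1.30 in libraries 1A and 1B, 1.10 in number 2 and 1.00 in number 3. With DAXX siRNA it was 1.21, 1.19, 1.35 and 0.99 in the same order. With crotonate it was 0.88 and 0.66 in numbers 2 and 3 with non-targeting siRNA, and 1.09 and 0.67 with DAXX siRNA. Both crotonate libraries of non-targeting siRNA thus lay below all of those without crotonate, while of the DAXX siRNA libraries number 2 with crotonate lay above number 3 without it. The mean was 1.13 ± 0.14 (SD, n = 3), or 2.18-fold over input, with non-targeting siRNA and 1.18 ± 0.18 (n = 3) with DAXX siRNA. With crotonate it was 0.77 ± 0.16 (n = 2), or 1.70-fold, and 0.88 ± 0.29 (n = 2). In 91.5% of members all 12 libraries exceeded input, against 82.3% of all regions.

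**Figure D1:**
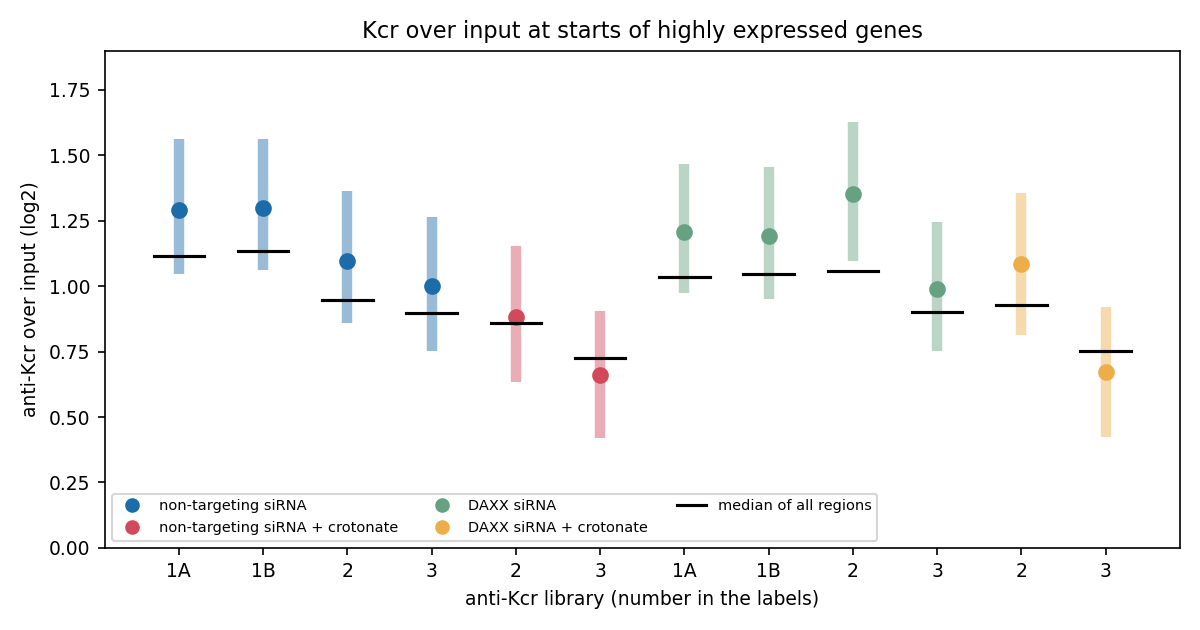
Median log2 of anti-Kcr over input (vertical axis) in each anti-Kcr library on the horizontal axis: points are medians over the members, bars run from their lower to their upper quartile and black lines are medians of all regions. The 2 crotonate libraries of non-targeting siRNA sit at 0.88 and 0.66 for the members, below the 1.00 to 1.30 of the libraries without crotonate.

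Because the scale of a library moves every class, the members were also set against other regions within each library. With non-targeting siRNA their median exceeded that of all regions by 0.17, 0.15 and 0.10 in samples 1, 2 and 3, and with crotonate by 0.023 and -0.069 in samples 2 and 3. The groups did not overlap, and the sign turned in 1 of the crotonate libraries. With DAXX siRNA the excess was 0.16, 0.29 and 0.09, and with crotonate 0.16 and -0.08, so these groups did overlap. Against silent starts the excess was 0.21, 0.19 and 0.13 with non-targeting siRNA and 0.037 and -0.079 with crotonate. Against lower expressed starts it was smaller, on average 0.07 without and 0.03 with crotonate. The share of all region reads that fell in members moved the same way, from 7.04 to 7.86% in the 8 libraries without crotonate to 6.79 and 6.40% with crotonate and non-targeting siRNA, and 7.29 and 6.36% with crotonate and DAXX siRNA. In the input it was 6.36%.

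**Figure D2:**
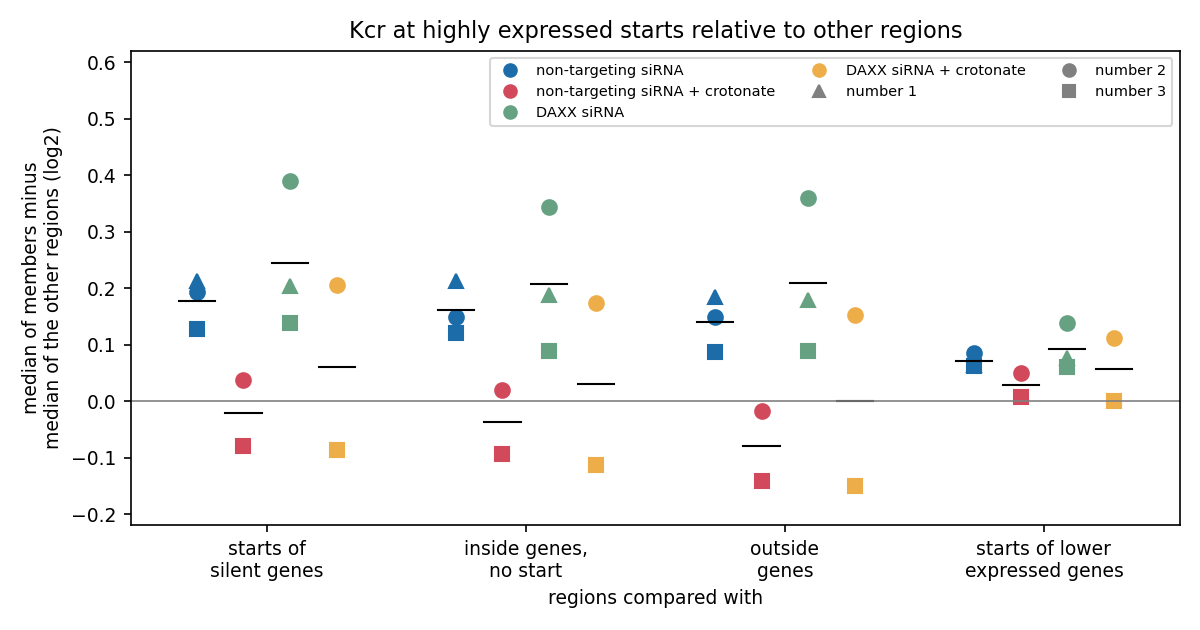
Difference between the members' median and that of other classes of regions (log2, vertical axis) in each sample (colour for group, shape for sample number, lines for group means), a measure that the library's scale does not move. Against silent starts the crotonate samples of non-targeting siRNA lie at 0.037 and -0.079, below the 0.13 to 0.21 of those without crotonate, while the DAXX siRNA groups overlap.

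Among themselves the members differed widely in Kcr and little of this followed their RNA. With non-targeting siRNA the mean level per region ran from 0.14 to 3.81 with quartiles at 0.90 and 1.36, and 64.0% of members reached 1 or more, against 46.9% of all regions. Over the 12263 regions at any gene start the level and the RNA had a rank correlation of 0.197, and within the members of 0.039. This describes regions that share libraries and input and carries no test. The median level was 0.95 at silent starts, 0.95, 0.98 and 1.03 at starts of genes between -2 and 0, 0 and 2, and 2 and 4 log2 RPM, 1.10 at starts of genes between 4 and 6 log2 RPM, 1.11 between 6 and 7 (1534 members), 1.14 between 7 and 8 (728), 1.15 between 8 and 10 (432) and 1.18 above 10 (61). The median thus went up gradually from bin to bin, with most of the rise below the threshold. With crotonate and non-targeting siRNA silent starts and the 5 bins from 4 log2 RPM up read 0.79, 0.75, 0.77, 0.77, 0.78 and 0.85, so only the last bin lay above silent starts. With crotonate and DAXX siRNA they read 0.82, 0.84, 0.87, 0.86, 0.92 and 0.94, and all 5 bins lay above silent starts. These are means of 2 samples that parted. With DAXX siRNA the lower values were 0.759 at silent starts and 0.646 to 0.715 in the 5 bins, all below. The higher values were 0.879 and 1.024 to 1.173, all above. With non-targeting siRNA the higher values also put all 5 bins above silent starts (0.846 to 0.948 against 0.844). Levels per region with the 2 siRNAs, which share the input but no anti-Kcr library, had a rank correlation of 0.871 over the members.

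**Figure D3:**
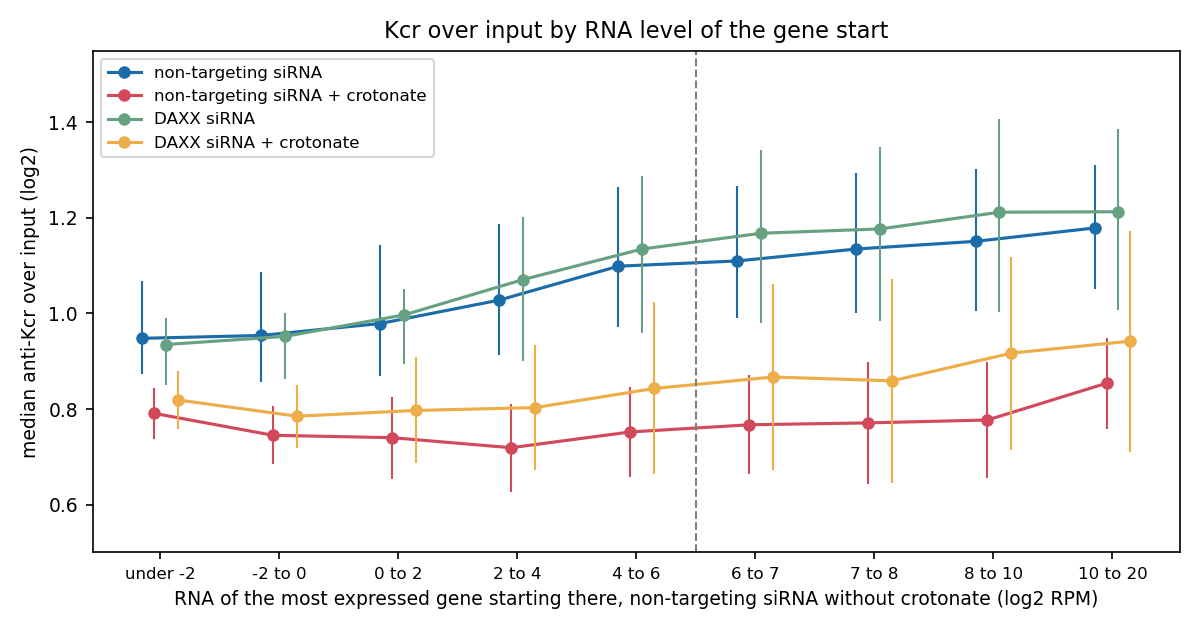
Median log2 of anti-Kcr over input (vertical axis) for regions at gene starts, in bins of the gene's RNA level (horizontal axis, log2 RPM), by group, with points at the group mean, lines from the lowest to the highest sample and the dashed line at the threshold of 6. Without crotonate and with non-targeting siRNA the median goes from 0.95 at silent starts to 1.18 in the top bin, and with crotonate and non-targeting siRNA it lies between 0.72 and 0.85 in all bins.

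Members on the X chromosome stood apart from those on autosomes. The 97 members on X (3.52%) had a median level of 1.60 with non-targeting siRNA against 1.11 for the 2658 on autosomes. The other groups read 1.69 against 1.17 with DAXX siRNA, 1.17 against 0.76 with crotonate and non-targeting siRNA, and 1.27 against 0.86 with both. X members were higher in each of the 10 samples. They were also shorter (median 900 against 3300 bp) and had less input per kb (2.82 against 3.50 on the log2 scale). The same contrast held over all regions (1.62 on X against 0.97), so it is not particular to the starts of expressed genes. The part of input depth and region length in it was not tested. X supplied 17.4% of the 276 members of highest level and 1.81% of the 276 of lowest.

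**Figure D4:**
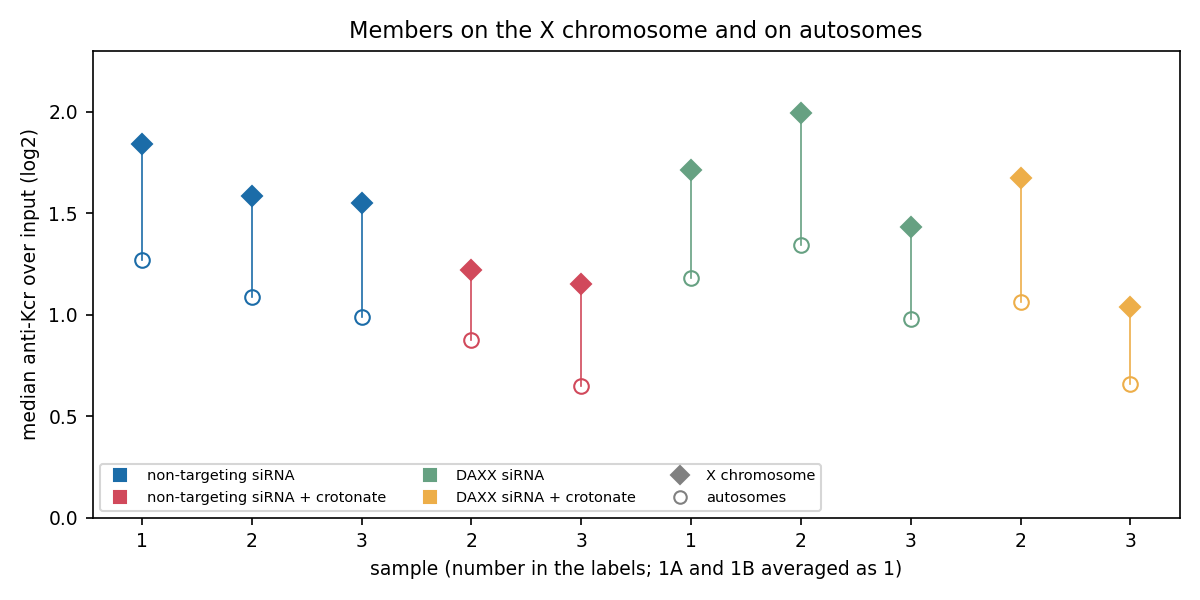
Median log2 of anti-Kcr over input (vertical axis) in each sample for members on the X chromosome and on autosomes. X members lie above autosomal members in every sample, with group medians of 1.60 against 1.11 for non-targeting siRNA.

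The members of highest Kcr, among those with input at or above the lower quartile of all regions, were at DDX3X, STAG2, HCFC1, CD164 and CDCA7L. DDX3X, an X-linked RNA helicase (region chrX:41332351-41335350), read 2.75, 2.85, 2.49 and 2.40 in libraries 1A, 1B, 2 and 3 of non-targeting siRNA. With crotonate it read 2.54 and 1.81, so sample 2 lay within the range without crotonate and sample 3 below it. STAG2, a cohesin subunit, read 2.77, 2.32, 2.71 and 2.36, and 2.01 and 1.21 with crotonate, both lower. DDX3X and STAG2 were picked as high by the samples without crotonate, so lower values with crotonate are not independent of that choice. HCFC1, a cofactor of transcription that binds chromatin-modifying enzymes, averaged 2.53 ± 0.34 (n = 3). CD164, a sialomucin of the cell surface and the only member of the 5 besides CDCA7L that lies on an autosome, averaged 2.47 ± 0.39. CDCA7L averaged 2.45 ± 0.08. Among those at the other end were FYTTD1 (0.31 ± 0.31) and SARNP (0.29 ± 0.36), both mRNA export factors, RPL22 (0.26 ± 0.14), a ribosomal protein, and GSN (0.20 ± 0.48), the actin-severing gelsolin. These 4 lay close to input, and SARNP, RPL22 and GSN each had a library without crotonate below input. Without the input condition the highest member was a 750 bp region at ATRX, the partner of DAXX, at 3.81, from 8 to 21 reads per library. Its input was 0.082 on the log2 scale, against a median of 5.17 over the members, so this level is a ratio to very little input.

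The genes of highest RNA were not those of highest Kcr. At EEF1A1, the translation elongation factor, the mean level with non-targeting siRNA was 1.72. It was 0.90 at HSP90AA1 and 1.24 at HSP90AB1, both cytosolic chaperones, 0.96 at EEF2, an elongation factor, and 1.12 at RPS2, a ribosomal protein. Genes of these families can share reads with near-identical copies, so their RNA is uncertain to that extent, and the Kcr levels of HSP90AB1, EEF2 and RPS2 lie inside the quartiles of all members.

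The first comparison asks whether crotonate changed Kcr at these starts in cells with non-targeting siRNA. Over the members the median log2 change was -0.36 (quartiles -0.50 and -0.23), a level 0.778 times that without crotonate, and 94.7% of members had a negative change, against a median of -0.19 and 74.4% over all regions. By limma over all 49916 regions, 0 members and 0.0% of regions reached an adjusted p under 0.05 in either direction, and the smallest adjusted p of a member was 0.169. At an unadjusted p under 0.05, 944 members (34.3%) were lower, against 12.8% of all regions, and 1 was higher, against 0.491%. With limma-voom on reads recovered from the deposited values 0 members were called as well. Other settings did call members lower: 21 (0.762% against 0.194% of all regions) with libraries 1A and 1B kept apart, 12 (0.436% against 0.128%) with only the groups compared in the fit and 79 (2.87% against 0.821%) with the replicate number as a block. The median change was -0.32 at lower expressed starts, -0.16 at silent starts, -0.15 inside genes away from starts, -0.13 outside genes and -0.25 in regions of 10000 bp or more. In both samples with crotonate 1404 members (51.0%) lay below all samples without it, against 26.6% of all regions, and 11 (0.399%) lay above, against 3.41%. The share below was 41.4% at lower expressed starts, 23.4% at silent starts and 54.6% in regions of 10000 bp or more. Such shares, and those passing a p threshold, also depend on how many reads a region holds. The members held more input than all regions (median 5.17 against 4.25 on the log2 scale). Regions of 10000 bp or more had a smaller median change than the members but a larger share below. The part of read depth in these shares was not tested.

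The size of this change rests on the scale and on single libraries. Centring each library on its median region brought the median over all regions from -0.19 to -0.021 and that of the members to -0.19, with 17.6% of members lower at an unadjusted p under 0.05 against 5.46% of all regions. Centring moves every region of a library alike, so by construction it left the distance between members and all regions at -0.17. That distance was -0.14 after quantile scaling and -0.18 with limma-voom. Without number 3 of the crotonate libraries the median was -0.24 and 11% of members were lower at an unadjusted p under 0.05, against 5.64% of all regions. Without number 2 it was -0.47 and 4 members were called lower (0.145% against 0.0881% of all regions).

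With DAXX siRNA, whose samples are separate from those of non-targeting siRNA, the median change with crotonate was -0.30 (quartiles -0.43 and -0.18), and 93.5% of members were negative against 72.0% of all regions, whose median was -0.16. By limma, 0 members (0.0% of regions) reached an adjusted p under 0.05, the smallest being 0.357. At an unadjusted p under 0.05, 591 members (21.5%) were lower against 7.92% of regions and 1 was higher against 0.579%. By limma-voom 0 members were called, and with the replicate number as a block 2 (0.0726% against 0.00601%). This comparison depended on single libraries more than the first. Without number 2 of DAXX siRNA with crotonate the median was -0.50, 45.9% of members were lower at an unadjusted p under 0.05 (15.6% of all regions) and 90 were called (3.27% against 0.791%). Without number 3 the median was -0.090 and 3.01% were lower, near the 2.93% of all regions. Without number 2 of DAXX siRNA without crotonate 8.46% were lower against 3.95%, and without number 3 of it 35.0% against 11.5%.

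Samples that carry the same number can be set side by side, although the numbers are not shown to mark shared cultures. With non-targeting siRNA the median difference, with minus without crotonate, was -0.22 in number 2 and -0.35 in number 3, and with DAXX siRNA -0.27 and -0.32. In all 4 of these differences 1414 members (51.3%) were lower, against 22.2% of all regions, 37.3% at lower expressed starts, 17.1% at silent starts, 15.9% inside genes, 13.4% outside genes and 58.3% of regions of 10000 bp or more. Only 3 members (0.109%) were higher in all 4, against 2.53% of all regions. These shares rest on the pairing by number, and without it the DAXX siRNA groups overlap in the members' median. They also depend on how many reads a region holds. Over the 2755 members the changes in the 2 arms, which share no anti-Kcr library, had a rank correlation of 0.108, as a description that does not test whether the sizes differ.

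Members were also compared with other regions of equal level, taking the level from the DAXX siRNA samples and the change from the non-targeting siRNA samples. In bins from 0 to 3 on the log2 scale the members' median change ran from -0.41 to -0.26, that of silent starts from -0.25 to -0.10 and that of regions outside genes from -0.14 to -0.09. In bins of promoter GC content from 45 to 90%, the members' median ran from -0.38 to -0.35. Silent starts ran from -0.18 to -0.11 in the same bins, and lower expressed starts from -0.365 to -0.345. In the bin from 45 to 55% lower expressed starts read -0.365 and the members -0.347. In bins of input depth the members ran from -0.39 to -0.29. In every bin of level and of input that held them, the members' median change was more negative than that of silent starts. Lower expressed starts came closest to the members, with medians of -0.39 to -0.18 in the bins of level. With the arms exchanged the members ran from -0.32 to -0.25, silent starts from -0.17 to -0.08 and lower expressed starts from -0.34 to -0.19, so that in the bin from 1.5 to 2 the lower expressed starts read -0.34 and the members -0.31. Across all starts the change had a rank correlation of -0.318 with the RNA level, and within the members of -0.040, as a description without a test.

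**Figure D5:**
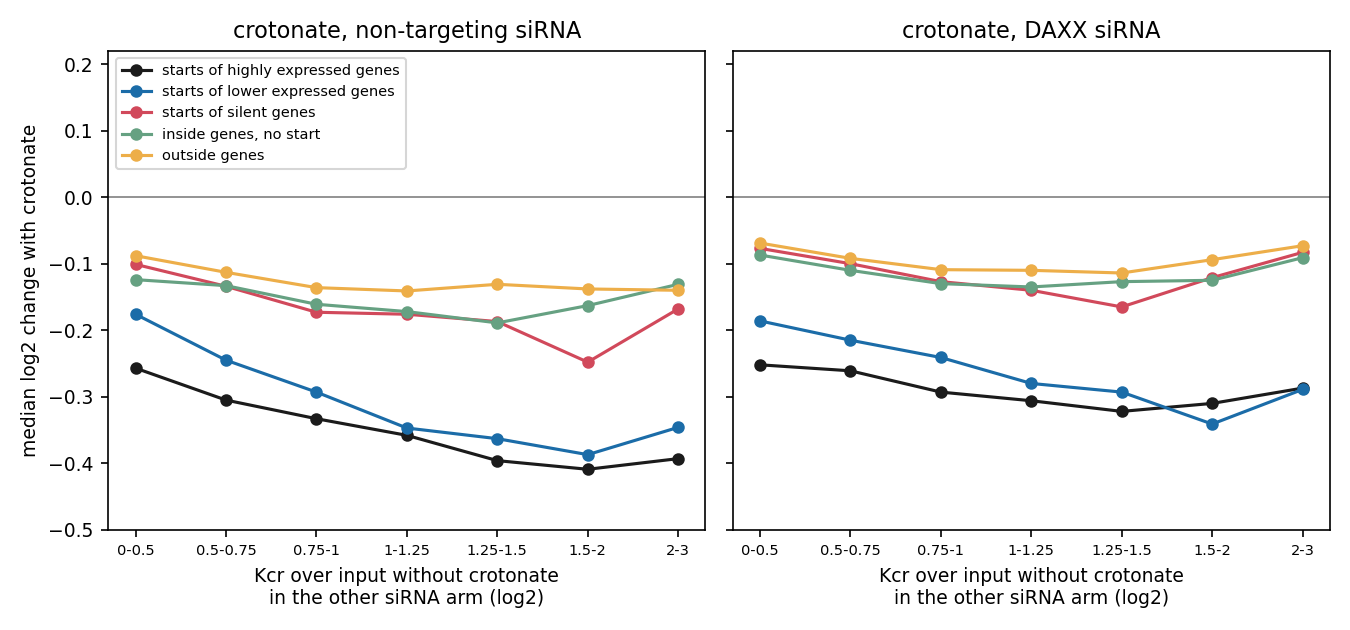
Median log2 change with crotonate (vertical axis) for classes of regions, in bins of the Kcr level measured in the other siRNA arm (horizontal axis, log2 over input), with non-targeting siRNA on the left and DAXX siRNA on the right. Members lie at -0.26 to -0.41 across the bins on the left and at -0.25 to -0.32 on the right, and regions outside genes at -0.09 to -0.14 and at -0.07 to -0.11.

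Among single members, the smallest p for lower Kcr with crotonate and non-targeting siRNA were at YARS1, EI24 and PGAM5. The region of YARS1, the cytosolic tyrosyl-tRNA synthetase (chr1:32815951-32819700), read 1.20, 1.32, 1.30 and 1.10 in libraries 1A, 1B, 2 and 3 and 0.29 and 0.23 with crotonate. The groups did not overlap, and the log2 change was -0.96 ± 0.18 (SE), with an unadjusted p of 1.13e-05 and an adjusted p of 0.169 by limma. With DAXX siRNA the same region read 1.02, 1.05, 1.08 and 0.85 without and 1.04 and 0.59 with crotonate, which overlapped. EI24, a membrane protein of the endoplasmic reticulum with a role in autophagy (chr11:125568751-125570550), read 1.00, 1.35, 0.95 and 1.12 against 0.23 and -0.35, so 1 crotonate sample was below input. Its change was -1.14 ± 0.24. PGAM5, a mitochondrial protein phosphatase (chr12:132709501-132711750), read 1.29, 1.21, 1.72 and 1.78 against 0.73 and 0.33, a change of -1.05 ± 0.22. All 3 had the adjusted p of 0.169, and none of them was called.

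In the DAXX siRNA arm the smallest p for lower Kcr were at MFHAS1, BAZ1A and VAV2. BAZ1A, a subunit of ISWI chromatin remodelling complexes (chr14:34873051-34876050), read 1.46, 1.46, 1.77 and 1.42 without and 0.86 and 0.30 with crotonate, a change of -0.97 ± 0.20 with an adjusted p of 0.357 by limma. It was also lower in the other arm, at 1.56, 1.56, 1.36 and 1.35 against 0.54 and 0.49. Neither arm overlapped at this region. VAV2, a guanine nucleotide exchange factor, read 1.17, 1.07, 1.32 and 1.18 without crotonate and 0.76 and -0.26 with it, so that the samples with crotonate were far apart. MFHAS1 had a change of -1.02 ± 0.21.

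Higher Kcr with crotonate was rare among the members. POLR2M, an RNA polymerase II associated protein, was the 1 member higher at an unadjusted p under 0.05 with non-targeting siRNA, at 0.84, 0.94, -0.10 and 0.19 without and 0.89 and 1.40 with crotonate, a range that overlaps. CD46, a complement regulator whose promoter is printed above, read 0.66, 1.08, 0.53 and 0.19 without and 1.00 and 0.86 with crotonate, within its range without crotonate. With DAXX siRNA CD46 went the other way, from 0.60, 0.63, 1.17 and 0.83 to 0.43 and 0.30, and the difference between arms was -0.91 ± 0.32 (unadjusted p of 0.0081 and adjusted p of 1.0 by limma). RRP7A, the 1 member higher in the DAXX siRNA arm at an unadjusted p under 0.05, rests on 1 to 10 reads per library.

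The gene groups that make up the highly expressed genes shared the direction of the class. The lists were chosen with earlier results of these data known, and no region in them was called by limma in either crotonate comparison. Of 78 highly expressed cytosolic ribosomal protein genes, 59 had member regions, 64 in number, with a median level of 1.05 and a median change of -0.35 with crotonate and non-targeting siRNA, and 60 of 64 were negative. The 29 regions of translation factors had a median change of -0.37, and all 29 were negative. The 29 of proteasome subunits had -0.43 with 27 negative, the 33 of chaperones -0.34 with 31 negative, and the 45 of nuclear-encoded respiratory chain subunits -0.35 with 41 negative. The median of all members was -0.36, and 94.7% of them were negative, against 74.4% of all regions. The 27 regions of the actin and tubulin cytoskeleton had -0.40 with 26 negative, the 25 of DNA replication -0.36 with 23, the 12 of epithelial keratins, junctions and adhesion -0.39 with 11, the 17 of iron and antioxidant genes -0.36 with 15, and the 12 of genes that earlier work on these data had named for their RNA -0.36 with 11. With DAXX siRNA the median was -0.33 for ribosomal proteins, with 61 of 64 negative, and -0.28 for translation factors, with 27 of 29. In that arm 93.5% of all members were negative. In RNA, of the ribosomal protein genes 0 were higher and 0 lower with non-targeting siRNA, and 0 higher and 4 lower with DAXX siRNA.

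Splicing factors, histones and their chaperones, glycolysis and the enzymes of crotonylation had medians from -0.47 to -0.29. The 37 regions of hnRNP and splicing factor genes, which process pre-mRNA, had a median level of 1.31 and a median change of -0.47. All 37 were negative, against 94.7% of all members. Of the 37, 21 were lower at an unadjusted p under 0.05, against 34.3% of members and 12.8% of all regions. In the DAXX siRNA arm their median change was -0.27, with 36 negative. In RNA 4 of their 35 genes were lower with crotonate and non-targeting siRNA, against 2.34% of all genes and 4.95% of member genes. NONO, an X-linked splicing-associated protein, averaged 2.33 without and 1.68 with crotonate, and HNRNPA2B1 1.88 and 1.38. The 23 regions of replication-independent histones and their chaperones, the group to which DAXX and ATRX belong, had -0.44 with all 23 negative. ANP32B, a histone chaperone, averaged 1.96 without and 1.51 with crotonate. The 9 regions of glycolysis genes had -0.45 with all 9 negative, for example PFKM, a phosphofructokinase, at 1.54 and 0.88. The 10 regions of enzymes and readers of crotonylation had the median closest to 0 with non-targeting siRNA, -0.29 with 8 negative. With DAXX siRNA they had -0.33 with all 10 negative, and the list closest to 0 was that of epithelial genes at -0.16. Within the list of crotonylation enzymes and readers, EP300, which writes the mark, averaged 1.72 without and 1.20 with crotonate. KAT6A averaged 0.79 and 1.27, from 7 to 24 reads per library. Regions named within a list were picked as its highest or its lowest in Kcr with non-targeting siRNA and no crotonate. Those samples also enter the change, so the direction at single named regions is not independent of that choice. The lists were not tested against one another.

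Immediate early genes and genes of the integrated stress response differed in the direction of their RNA. Both lists were chosen with earlier results of these data known, so these RNA counts are not independent of that choice. The libraries with non-targeting siRNA and no crotonate also chose the genes as high. Of 8 immediate early and AP-1 genes with member regions, 5 were higher in RNA with crotonate and non-targeting siRNA at an adjusted p under 0.05 by limma and 0 lower, where 13.1% of all genes and 4.36% of member genes were higher. The Kcr of their 9 regions had a median change of -0.44 with all 9 negative, as at DUSP6, a phosphatase of ERK, with means of 1.66 without and 1.22 with crotonate, and at MCL1, a survival factor of the BCL2 family, with 1.12 and 0.66. Of 12 genes of the integrated stress response and amino acid supply, 7 were lower in RNA and 0 higher, where 2.34% of all genes and 4.95% of member genes were lower. The Kcr of their 14 regions had a median change of -0.43 with all 14 negative, as at ATF4, the transcription factor of this response, with 1.78 and 1.48. No region of either list was called, and 94.7% of all members were negative. DUSP6, MCL1 and ATF4 were picked by their Kcr level in the samples without crotonate, so their single changes are not independent of that choice. With DAXX siRNA the median Kcr change was -0.235 at the immediate early list, with 8 of 9 negative. At the stress list it was -0.245, with 13 of 14 negative, and both were nearer 0 than the -0.30 of all members. In RNA 5 of the immediate early genes were higher, against 13.0% of all genes and 5.54% of member genes. Of the stress genes 5 were lower, against 2.41% of all genes and 5.03% of member genes.

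The comparisons of DAXX siRNA with non-targeting siRNA showed small median differences at the members. They reuse the samples of the crotonate comparisons. Without crotonate the median difference was 0.043, against 0.009 over all regions, and it was -0.100, 0.243 and -0.013 in samples 1, 2 and 3. By limma 0 members (0.0% of regions) were called, the smallest adjusted p being 1.0, and by limma-voom 0. At an unadjusted p under 0.05, 17 members were higher (0.617% against 1.29% of regions) and 7 lower (0.254% against 1.08%). With crotonate the median difference was 0.10, against 0.052 over all regions, with 0.201 in number 2 and 0.012 in number 3. Again 0 were called by limma or limma-voom, the smallest adjusted p being 0.999, with 97 higher (3.52% against 2.79%) and 20 lower (0.726% against 1.38%) at an unadjusted p under 0.05. Single libraries set the direction: without number 2 of DAXX siRNA the first median was -0.038 and without number 3 of non-targeting siRNA -0.021. The second was -0.099 without number 2 of DAXX siRNA with crotonate, -0.015 without number 3 of non-targeting siRNA with crotonate, and 0.32 without number 3 of DAXX siRNA with crotonate.

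Whether crotonate acted differently in the siRNA arms was tested as an interaction. Its median over the members was 0.066, against 0.042 over all regions, and by limma 0 members (0.0% of regions) were called, and by limma-voom 0. At an unadjusted p under 0.05, 36 members were higher (1.31% against 1.88%) and 18 lower (0.653% against 1.21%). Neither share exceeds that of all regions. The smallest p were at METAP1, a methionine aminopeptidase, where both samples with crotonate and non-targeting siRNA lay below input (-0.65 and -1.32) and those with crotonate and DAXX siRNA read 0.99 and 0.89, from 3 to 17 reads per library. Without number 2 of DAXX siRNA with crotonate the median interaction was -0.14, and without number 3 it was 0.28.

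The RNA of the 2545 genes at the members was tested over 17973 genes at or above 0.25 RPM in at least 4 libraries. With crotonate and non-targeting siRNA, 111 member genes were higher (4.36% against 13.1% of all genes) and 126 lower (4.95% against 2.34%) at an adjusted p under 0.05 by limma. The samples with non-targeting siRNA and no crotonate chose these genes as high, so this comparison is not independent of the choice. The change within DAXX siRNA is measured without those samples, although they enter the shared estimate of the spread. It gave 141 higher (5.54% against 13.0%) and 128 lower (5.03% against 2.41%). With only the groups compared in the fit it gave 115 higher (4.52% against 11.8%) and 90 lower (3.54% against 1.82%). The split rests on scale: with each library centred on its median gene it was 41 higher (1.61% against 8.11% of all genes) and 541 lower (21.3% against 9.46%) with non-targeting siRNA, and 42 (1.65% against 8.43%) and 486 (19.1% against 8.28%) with DAXX siRNA. Single libraries moved these counts. With non-targeting siRNA 69 were lower without number 1 of the libraries without crotonate, and 77, 81 and 58 without numbers 1, 2 and 4 of those with it. Of all genes 1.49% were lower in the first of these settings, and 1.37 and 1.44% without numbers 1 and 4 of those with crotonate. With DAXX siRNA 60, 79 and 57 were lower without numbers 1, 2 and 3 of the libraries without crotonate, and 77 and 200 without numbers 2 and 3 of those with it, while 80 were higher without number 3 of the former and 88 without number 2 of the latter. Over all genes 3.32% were lower in the setting with 200 and 1.22 to 1.64% in the other 4, and 9.91 and 10.1% were higher. In RNA from bulk cultures, fewer cells that express a gene and less RNA per cell cannot be told apart.

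Among member genes that rose with crotonate were ANXA6, a calcium-dependent membrane-binding protein, from 97.2, 127, 104 and 107 RPM to 177, 166, 168 and 171 RPM with non-targeting siRNA. The libraries did not overlap, and the log2 change was 0.66 ± 0.07 (adjusted p of 2.88e-06 by limma). IGF2BP3, an RNA-binding protein, rose from a mean of 94.8 to 149 RPM, ITGA2, an integrin chain, from 69.8 to 107 RPM, and HLA-B from 96.3 to 148 RPM, although reads of this family can be shared among its genes. CAV1, the coat protein of caveolae, fell from 398, 367, 448 and 426 RPM to 236, 227, 236 and 224 RPM, with no overlap and a log2 change of -0.82 ± 0.07 (adjusted p of 3.19e-07 by limma). IRS1, the adaptor of the insulin receptor, fell from 129 to 73.3 RPM, JADE2 from 85.3 to 51.5 RPM, and STC2, a secreted glycoprotein, from 82.7 to 54.6 RPM. In DAXX siRNA cells these 3 and CAV1 were also lower with crotonate.

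The median Kcr change was negative whichever way the RNA of the gene went. With crotonate and non-targeting siRNA the median Kcr change was -0.39 at 125 regions whose gene rose in RNA, -0.36 at 2501 whose gene was not called and -0.39 at 129 whose gene fell. With DAXX siRNA it was -0.26 (159 regions), -0.30 (2467) and -0.35 (129). Across the members the change in Kcr and that in RNA had rank correlations of 0.046 and 0.089 in these comparisons, as a description over regions that share libraries.

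DAXX siRNA changed the RNA of few member genes. The comparison without crotonate uses the libraries that chose the genes as high and is not independent of that choice. In the comparison with crotonate those libraries enter only the shared estimate of the spread. Without crotonate 7 were higher (0.275% against 0.1% of all genes) and 13 lower (0.511% against 0.306%), and with crotonate 18 higher (0.707% against 0.389%) and 26 lower (1.02% against 0.668%), by limma at an adjusted p under 0.05. DAXX itself fell by 2.07 on the log2 scale without crotonate (from 103 to 24.6 RPM) and by 2.41 with it. HMGA2, an architectural chromatin protein, rose from 175, 132, 178 and 197 RPM to 311, 276, 314 and 290 RPM, a log2 change of 0.82 ± 0.11 (adjusted p of 0.000463 by limma) with no overlap. GAS6, a ligand of TAM receptor kinases, rose from 77.9 to 128 RPM and FTH1, the ferritin heavy chain, from 1810 to 2500 RPM. Without a filter on low values FTH1 was not called (adjusted p of 0.168 by limma). FTH1 overlaps BEST1 on the other strand and the strand setting of the counts is not given in the sources used here. UHRF1, which reads hemimethylated DNA, fell from 260 to 177 RPM, and IST1, FUBP3 and ARFGEF2 fell by 0.49, 0.46 and 0.58 on the log2 scale. With crotonate the change was 0.88 for HMGA2 and -0.63 for UHRF1. The counts depended on single libraries. Without crotonate 8 were lower (0.161% of all genes) when number 3 of DAXX siRNA was left out. With crotonate 33 were higher (0.779% of all genes) and 47 lower (1.07%) without number 2 of non-targeting siRNA without crotonate, 10 and 11 were higher without numbers 1 and 2 of DAXX siRNA with crotonate, and 7, 10 and 6 without numbers 2, 3 and 4 of non-targeting siRNA with crotonate, where 16 and 15 were lower without numbers 2 and 3. Over all genes 0.139 to 0.206% were higher in those 5 settings and 0.389 and 0.362% lower. For the interaction 0 member genes were called by limma or limma-voom, against 0.0% of all genes. At an unadjusted p under 0.05 there were 31 of 2545 member genes, a smaller share than the 0.05 that chance alone gives.

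Values ran on across both thresholds. Just inside the RNA threshold lay regions at OXSR1 and ACAT2 (64.1 RPM), and just outside it SFSWAP, TRAPPC1 and SAMM50 (63.9 RPM). Just inside the length threshold lay regions of 9900 bp at PTK2, SLC39A1 and IRS1, and just outside it regions of 10050 bp at PLPP2, BSG and NOC2L. The 477 regions of 10000 bp or more at highly expressed starts had a median level of 1.03 with non-targeting siRNA and a median change of -0.31 with crotonate, between the members and all regions.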

How the data were processed

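RNA was measured in 16 libraries and anti-Kcr ChIP in 12, with 1 input. Per the submitters' processing notes, reads were trimmed with Trim Galore (0.6.2 for RNA, 0.6.5 for ChIP) and cutadapt 2.3, aligned to GRCh38 with HISAT2 2.2.1 (RNA) or Bowtie2 (ChIP), and regions came from MACS. For the merging of regions across libraries and for the RNA counter and its strand setting, the answer is not given in the sources used here.

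The deposited values are on a log2 scale: the authors gave log2 RPM per gene, and log2 reads per region multiplied by 1 factor per library, neither divided by length. A value of 0 reads had been entered as 0.9 read. Undoing the scale gave whole reads, within 0.01 read, for 100% of anti-Kcr values. Input was not subtracted by the authors; here log2 input was subtracted to give levels, and changes were fitted without it.

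Samples were grouped by their treatment labels, with anti-Kcr libraries 1A and 1B averaged. Each contrast was fitted with limma 3.58.1 (R 4.3.3) with a trended prior variance on all regions, or on the 17973 of 38148 genes at 0.25 RPM or more in at least 4 libraries, with Benjamini-Hochberg adjustment within a contrast and a threshold of 0.05. All 4 groups entered each fit. The code was tested on simulated data with known changes.

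The members and the 16 gene lists were chosen with earlier results of these data known. Text names the 2 highest and the 1 lowest members of a list by Kcr level, the 3 members of smallest p each way per contrast, the 5 of highest and of lowest level, the neighbours of each threshold, up to 5 called genes each way per RNA contrast and the 5 genes of highest RNA, of which a few are not reported here. Alternatives were other scalings, limma-voom on recovered reads, no trend, the replicate number as a block, only the groups compared, filters, other thresholds of the rule and leaving out each library. The sequences come from RefSeq tables of promoters on GRCh38.p14; no genome sequence was used here.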

Additional observations from a re-analysis of the deposited data

Results flagged for a closer look

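In 116 groups of 4 RNA libraries of the named genes, 10 held a library set apart from the other 3 by more than Dixon's limit allows, where chance gives about 1 in 20. Number 2 of non-targeting siRNA was apart at RTEL1-TNFRSF6B (155 RPM, the others 105 to 113), HLA-B (110, others 89.9 to 92.6), MBNL2 (58.4, others 85.9 to 91.5), GAS6 (97.2, others 69.5 to 73.7) and FUBP3 (124, others 130 to 131), which is 5 of the 10. RTEL1-TNFRSF6B is a read-through gene, and its reads can belong to either neighbour. Number 4 of non-targeting siRNA was apart at STC2 (74.9, others 84.4 to 85.8). With crotonate and non-targeting siRNA, number 4 was apart at DAXX (95.2, others near 102) and UHRF1 (196, others 225 to 228). With DAXX siRNA, number 2 was apart at STC2 (95.9, others 81.9 to 84.1) and number 4 at GAS6 (148, others 119 to 124).

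Among 39 named regions, 1 went opposite ways with crotonate in the siRNA arms with no overlap between samples in either arm. At FBXO7, a subunit of ubiquitin ligases, both crotonate samples lay below all samples without it with non-targeting siRNA and above all of them with DAXX siRNA. The first held for 51.0% of members and 26.6% of all regions, the second for 0.508% and 4.2%. Regions with both were not counted over all regions. FBXO7 was named for its small p in the DAXX siRNA arm, so the lack of overlap there is not independent of that choice. The difference between the arms was 0.656 on the log2 scale, with an unadjusted p of 0.0333 and an adjusted p of 1.0 by limma.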

How the results depend on the processing

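Of the summary results under an alternative, 611 stayed within the replicate spread or within 1.5 times of the count, and 64 moved. With crotonate and non-targeting siRNA, members called lower in Kcr went from 0 to 21 with 1A and 1B kept apart (97 of all 49916 regions), 12 with only the groups compared (64), 79 with the replicate block (410) and 0 to 4 with a library left out (44 where it was 4). The median change of -0.361 became -0.188 after centring, -0.136 after quantile scaling, -0.138 with limma-voom and -0.473 to -0.236 with a library left out. The 34.3% lower at an unadjusted p under 0.05 became 17.6, 12.5, 13.7 (numbers 2 and 3), 18.3 (no trend), 11.2 (limma-voom) and 11 to 39.9 (a library left out). With DAXX siRNA the 21.5% became 13.0, 10.1, 14.1, 10.7, 6.82 and 3.01 to 45.9 in the same order, calls went from 0 to 2 with the block (3 of all regions) and 0 to 90 with a library left out (395), and the median from -0.300 to -0.103 with limma-voom and -0.503 to -0.090. With a library left out the medians ran from -0.038 to 0.142 for DAXX siRNA without crotonate, -0.099 to 0.322 with it (calls lower 0 to 1) and -0.137 to 0.276 for the interaction, and levels over input from 1.130 to 1.189 (non-targeting siRNA), 1.092 to 1.273 (DAXX siRNA), 0.659 to 0.881 and 0.672 to 1.086 (each with crotonate).

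RNA calls with crotonate and non-targeting siRNA went from 111 higher to 41 (centred) and 78 to 128 (a library left out), and from 126 lower to 541 (centred), 74 (no filter) and 58 to 157. With DAXX siRNA they went from 141 higher to 42, 93 and 80 to 198, and from 128 lower to 486, 64, 193 (block) and 57 to 200. For DAXX siRNA without crotonate 7 higher became 12 (block) and 3 (no filter), and 13 lower became 6 (only the groups compared) and 8 to 15. With crotonate 18 higher ran from 6 to 33 and 26 lower from 15 to 47. Causes were not tested. Of 40 named Kcr changes, EEF2 with non-targeting siRNA turned sign (0.029 after quantile scaling, 0.071 with limma-voom), CDCA7L reached 0.000 without number 3 of crotonate with non-targeting siRNA (-0.586 without number 2), and 8 were called under at least 1 alternative. Of 40 named RNA changes 37 kept direction and call throughout, and 3 lost the call under at least 1: FTH1 with DAXX siRNA and no crotonate, and AP3S1 with DAXX siRNA in both comparisons. The replicate numbers are not stated to mark a shared culture. Deviations of same-numbered samples correlated by -0.001 to 0.095 for Kcr and -0.251 to 0.188 for RNA, so the pairing is not shown and the block values stand as alternatives. Fitting only the groups compared gives no interaction. Crotonate groups hold 2 samples, and a median of 44 to 86 reads per region limits each single value.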
